A study of Nothobranchius furzeri with 18 samples.

Results

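The genes that carry out and control protein synthesis were followed across 3 vgll3 genotypes of cultured killifish cells. They were chosen by name alone: symbols beginning eif1 to eif6, eef1 or eef2, and the symbols of aminoacyl-tRNA synthetases (an amino acid letter other than p, or ep, followed by ars, with or without a final 1, 2, a or b), leaving out the eIF2 kinases. The mitochondrial prolyl gene pars2, which is in the count table, is therefore not among them. The rule found 76 of the 25099 genes in the count table, and all 76 passed the low-count filter that left 16354 genes for testing. By role they were 5 genes of eIF2 and initiator tRNA delivery, 5 eIF2B subunits and 12 eIF3 subunits. The cap-binding complex eIF4F and its relatives gave 9, eIF4E-binding or eIF4E-transport proteins 3, and the eIF1, eIF5 and eIF5B families 3. The rest were eif6, eif5a, 4 genes grouped as eEF1 by symbol, 2 enzymes that modify elongation factors, 18 cytosolic synthetases and 13 mitochondrial synthetases. A further 21 translation genes stand in the table under LOC numbers and were found through their RefSeq names. They fall outside the name rule and are described apart.

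RNA was sequenced from primary fibroblasts grown from tails of the African turquoise killifish, Nothobranchius furzeri. The genotypes were a homozygous exon 3 mutation of vgll3 (cultures 1, 3 and 4), a homozygous exon 1 mutation of vgll3 (cultures 3, 4 and 6) and wild type (WT; cultures F1, F4, F9 and FM), and values per culture are listed in those orders throughout. Library names carry "null" for exon 3 and "KD" for exon 1, and strain, age and sex, and how long either mutation is, were not stated in the labels. Each culture has libraries A and B, technical replicates that were summed, except WT F1 and F9, which have 1 library each and were counted as separate cultures. Whether each culture came from a fish of its own is not stated. A p-value here therefore sets a difference only against the spread between these samples, and that spread may be technical.

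In translation initiation, eIF2 carries the initiator tRNA to the small ribosomal subunit, eIF2B recharges eIF2 with GTP, eIF3 holds the subunit to the mRNA, and eIF4F recognises the cap. In elongation, eEF1A of the eEF1 complex delivers charged tRNAs to the ribosome. Aminoacyl-tRNA synthetases charge those tRNAs, with largely separate enzymes for the cytosol and for mitochondria. Phosphorylated eIF2 inhibits eIF2B and slows general initiation while raising translation of ATF4, a transcription factor known in mammals to induce many cytosolic synthetase genes. vgll3 encodes a vestigial-like cofactor of TEAD transcription factors.

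Libraries held 15236208 to 28146560 counts, of which the 76 genes took 1.02% to 1.37%. Their share of a culture averaged 1.18% ± 0.036 in exon 3 mutants and 1.27% ± 0.098 in exon 1 mutants (SD, n = 3 each), and 1.26% ± 0.036 in WT (SD, n = 4). vgll3 itself had 119, 103 and 99.9 CPM (counts scaled to a common library total) in exon 3 mutants, 266, 206 and 262 CPM in exon 1 mutants, and 316, 333, 262 and 312 CPM in WT. It was lower in exon 3 mutants than in WT by edgeR's quasi-likelihood test (log2 fold change -1.51 ± 0.14 SE, Benjamini-Hochberg adjusted p = 0.00294), and the exon 1 difference did not pass (-0.32 ± 0.14, adjusted p = 0.565). Fibroblast markers (9 of 13 listed genes were in the table) summed to 3028 to 6030 CPM in exon 3 mutants, 3217 to 5701 CPM in exon 1 mutants and 3416 to 3965 CPM in WT. Each leukocyte, endothelial and muscle marker in the table (3, 2 and 5 of 5 listed) stayed under 1 CPM. The epithelial gene epcam had 0.65 to 3.78 CPM over the cultures. The nerve gene elavl3 had 2.79 and 0.72 CPM in exon 3 cultures 3 and 4 and at most 0.39 CPM elsewhere. In exon 3 culture 3 col1a2 alone gave 4994 CPM of the fibroblast sum. In that culture lum, fn1, pdgfra, prrx1 and twist1 were the lowest of all cultures (331, 117.01, 101, 246 and 9.65 CPM), and vim and postn were under 1 CPM in every culture. Exon 3 culture 3 and exon 1 library 3A stood apart along principal component 1 (27.7% of the variance). Libraries 3A and 3B of exon 3 culture 3 scored 69.6 and 76.7, and exon 1 library 3A scored 54.7 where its partner 3B scored -32.9. The other 14 libraries lay between -43.8 and 12.2. In exon 3 culture 3, osteoblast or hypertrophic cartilage markers (4 of 9 in the table) summed to 1487 CPM, against 311 and 424 CPM in the other exon 3 cultures, 261 to 698 CPM in exon 1 mutants and 144 to 249 CPM in WT, and the pigment gene dct had 113 CPM. In exon 3 culture 4 dct had 29.5 CPM, and it had at most 13.0 CPM in every other culture. Group medians and named fold changes that moved by over 1.5 times or changed sign without exon 3 culture 3 or exon 1 library 3A are mostly given below both ways, and the sign changes of other named genes stand with the processing settings. In such bulk samples, fewer cells of a type and less RNA per cell cannot be told apart.

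No translation factor or synthetase gene passed an adjusted p of 0.05 in any of the 3 comparisons. In exon 3 mutants against WT, 0 of 76 members passed, where 39 genes, or 0.238% of all genes tested, did. In exon 1 mutants against WT it was 0 of 76 beside a background of 0.159%, and in exon 3 against exon 1 mutants 0 of 76 beside 0.0122%. At an unadjusted p under 0.05, 2 members stood out in exon 3 mutants against WT (mars2 and nars2), a share of 2.63% where all genes tested gave 12.3%. Exon 1 mutants against WT also gave 2 members (ears2 and eif4ebp3), or 2.63% against 8.48% of all genes. Exon 3 against exon 1 mutants gave 4 members (mars2, cars, cars2 and lars), or 5.26% against 8.48%. All of these shares lie below the background.

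Median log2 fold changes over the 76 genes were -0.07 for exon 3 mutants against WT (24 above 0 and 52 below), 0.01 for exon 1 mutants against WT (43 above and 33 below) and -0.09 for exon 3 against exon 1 mutants (24 above and 52 below). The medians over all genes tested were 0.01, 0.02 and -0.01 in the same order of comparisons. Leaving out exon 1 library 3A moved the median between the mutants to -0.15. The exon 3 and exon 1 comparisons share their WT cultures. The 95% interval of every member lay within 1 log2 unit of 0 in both comparisons with WT, where the farthest bounds belonged to mars2 in exon 3 mutants (0.83 below 0) and to iars in exon 1 mutants (0.96 below 0). In exon 3 against exon 1 mutants 74 of 76 intervals did. The median distance from a fold change to the end of its interval was 0.32 log2 units in each comparison with WT and 0.34 between the mutants. Changes smaller than that mostly could not be told from 0 even before p-values were adjusted. A call after adjustment needs more: mars2, at -0.55 in exon 3 mutants against WT, had an edgeR adjusted p of 0.119.

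**Figure D1:**
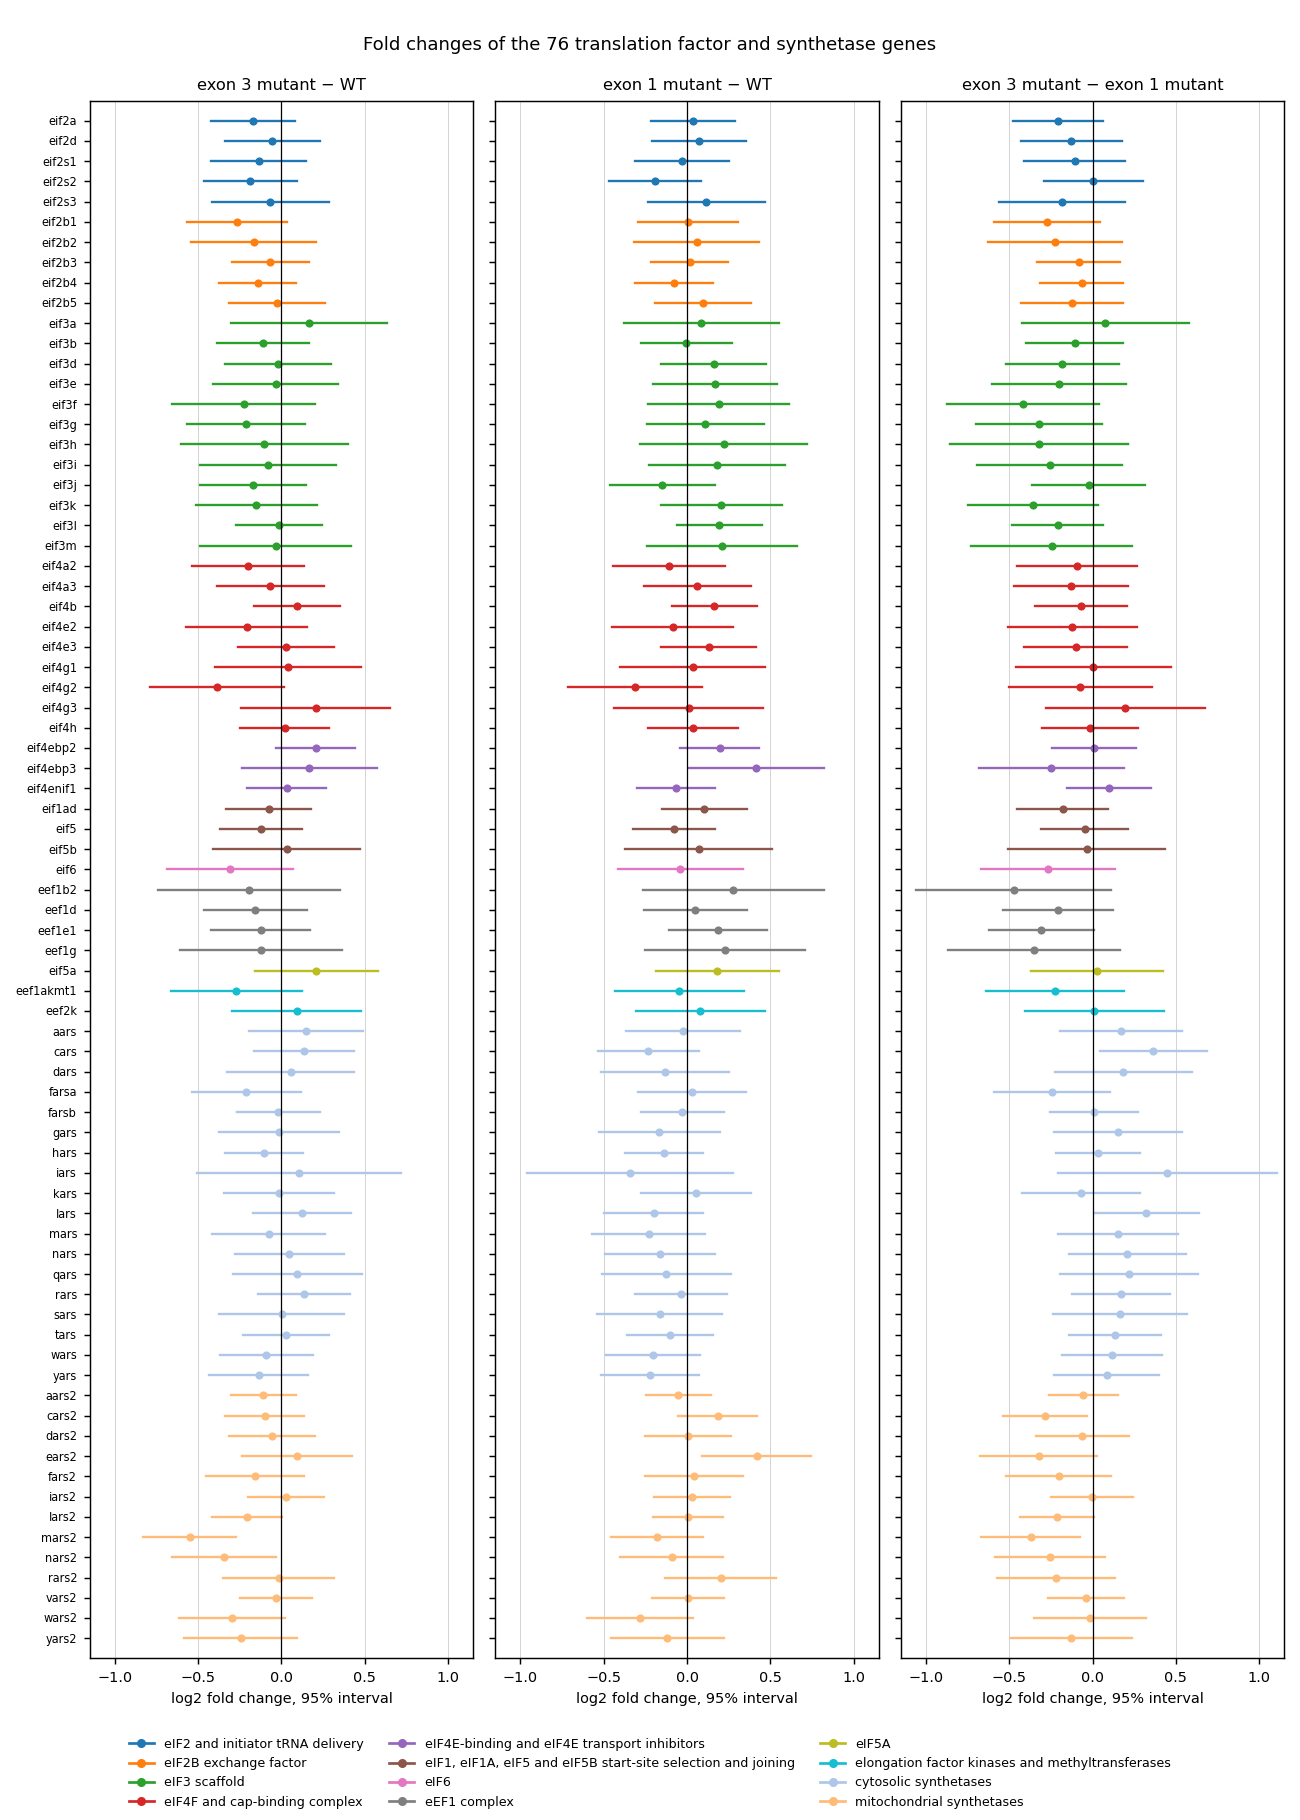
Log2 fold change of each of the 76 genes (points) with its 95% interval (lines) from the edgeR quasi-likelihood fit, in exon 3 mutants minus WT, exon 1 mutants minus WT, and exon 3 minus exon 1 mutants; colours mark the role groups. The farthest point below 0 in the first panel is mars2 at -0.55, and no gene passed an adjusted p of 0.05.

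Among the factors that bring the initiator tRNA, all 5 eIF2-related genes and all 5 eIF2B subunits had fold changes below 0 in exon 3 mutants against WT, with a median of -0.14 over the 10, and none passed the test. In exon 1 mutants against WT 7 of the 10 were above 0 (median 0.03). With exon 1 library 3A left out, 8 of the 10 were, with medians of 0.11 for the eIF2 genes and 0.13 for the eIF2B genes, where the medians with it were 0.04 and 0.02. The α subunit gene eif2s1, whose product is the one phosphorylated under stress, had 225, 178 and 187 CPM in exon 3 mutants, 184, 224 and 228 CPM in exon 1 mutants, and 232, 211, 219 and 204 CPM in WT. The 3 genotypes overlapped, and its log2 fold change was -0.14 ± 0.13 in exon 3 mutants (edgeR adjusted p = 0.688) and -0.03 ± 0.13 in exon 1 mutants (adjusted p = 0.981). The β subunit gene eif2s2 had 351, 361 and 383 CPM in exon 3 mutants, 328, 416 and 347 CPM in exon 1 mutants, and 418, 383, 440 and 421 CPM in WT. Its exon 3 cultures all lay below the WT cultures, narrowly at the nearest pair, and the fold change was -0.19 ± 0.13 (edgeR adjusted p = 0.575). The γ subunit gene eif2s3, the GTP-binding one, and the alternative initiator tRNA carriers eif2a and eif2d overlapped between genotypes, with exon 3 fold changes of -0.07, -0.17 and -0.05.

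For eIF2B, the gene of the regulatory α subunit, eif2b1, had 56.4, 41.6 and 51.2 CPM in exon 3 mutants, 51.2, 59.2 and 70.1 CPM in exon 1 mutants, and 56.8, 62.3, 60.6 and 60.0 CPM in WT. Every exon 3 culture was below every WT culture, by little at culture 1 and WT F1, and the lowest was culture 3. Exon 1 cultures spread to both sides of WT. Its exon 3 fold change was -0.27 ± 0.14 (edgeR adjusted p = 0.452), and -0.16 without culture 3. The δ subunit gene eif2b4 had 39.0, 37.2 and 36.5 CPM in exon 3 mutants against 43.4, 40.5, 42.3 and 39.7 CPM in WT, again apart but with a fold change of only -0.14 ± 0.11 (adjusted p = 0.608). The catalytic ε subunit gene eif2b5 differed least, at -0.03 ± 0.13 in exon 3 mutants. Without exon 3 culture 3, all 5 eIF2 genes and all 5 eIF2B genes were still below 0, with medians nearer to it (-0.08 in each group).

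Most of the 12 eIF3 subunit genes varied together from culture to culture. Relative to the mean of the WT cultures on the log2 CPM scale, their median was 0.07, -0.43 and -0.09 in exon 3 mutants, -0.02, 0.11 and 0.42 in exon 1 mutants, and 0.17, -0.0038, 0.03 and -0.19 in WT. Exon 3 culture 3 was the lowest of all and exon 1 culture 6 the highest. Fold changes were below 0 for 11 of 12 in exon 3 mutants against WT (median -0.09), above 0 for 10 of 12 in exon 1 mutants against WT (median 0.17), and below 0 for 11 of 12 in exon 3 against exon 1 mutants (median -0.23). None passed the test. Without exon 3 culture 3 the exon 3 median against WT was -0.02, with 5 of 12 above 0, and the median between the mutants was -0.13. Leaving out exon 1 library 3A gave 0.29 in exon 1 mutants against WT and -0.37 between the mutants, with the same counts on each side of 0.

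Single eIF3 genes show the range behind those medians. The gene eif3h, for a subunit of the outer part of the complex, had 340, 193 and 295 CPM in exon 3 mutants, 304, 295 and 436 CPM in exon 1 mutants, and 368, 300, 273 and 244 CPM in WT. Its exon 3 and exon 1 values run on both sides of WT, with fold changes of -0.10 ± 0.23 and 0.22 ± 0.23 against WT (edgeR adjusted p = 0.881 and 0.880). They were 0.10 in exon 3 mutants when culture 3 was left out and 0.39 in exon 1 mutants when library 3A was. The gene eif3k, a small peripheral subunit, had 135, 91.5 and 114 CPM in exon 3 mutants, 125, 140 and 171 CPM in exon 1 mutants, and 145, 125, 125 and 109 CPM in WT. Exon 3 and exon 1 cultures overlapped, and the fold change between the mutants was -0.36 ± 0.18 (edgeR adjusted p = 0.608), or -0.22 without exon 3 culture 3. The gene eif3l, another peripheral subunit, had 215, 207 and 200 CPM in exon 3 mutants, 213, 241 and 264 CPM in exon 1 mutants, and 223, 208, 218 and 189 CPM in WT; its exon 1 fold change was 0.19 ± 0.11 (edgeR adjusted p = 0.726).

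The gene of the largest core subunit, eif3a, ran the other way. It had 281, 456 and 275 CPM in exon 3 mutants, 384, 332 and 243 CPM in exon 1 mutants, and 272, 286, 319 and 327 CPM in WT. It was highest in exon 3 culture 3, where the other eIF3 genes were mostly lowest, and lowest in exon 1 culture 6, where most of them were highest. Its fold changes were 0.16 ± 0.21 in exon 3 mutants and 0.09 ± 0.21 in exon 1 mutants against WT (edgeR adjusted p = 0.781 and 0.967). Both changed sign, to -0.12 without exon 3 culture 3 and to -0.14 without exon 1 library 3A.

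The cap-binding group had no shared direction. Fold changes were above 0 for 5 of 9 genes in exon 3 mutants against WT (median 0.02) and for 6 of 9 in exon 1 mutants against WT (median 0.03). They were above 0 for 3 of 9 in exon 3 mutants without culture 3 (median -0.03) and for 4 of 9 in exon 1 mutants without library 3A (median -0.02). The gene eif4g2, a relative of the eIF4G scaffold that lacks the eIF4E-binding part and serves cap-independent initiation in mammals, had 275, 183 and 270 CPM in exon 3 mutants, 218, 240 and 308 CPM in exon 1 mutants, and 352, 338, 278 and 301 CPM in WT. All exon 3 cultures lay below WT, 2 of them close to the lowest WT culture, and 1 exon 1 culture reached into the WT range. Its fold changes were -0.39 ± 0.18 in exon 3 mutants and -0.31 ± 0.18 in exon 1 mutants (edgeR adjusted p = 0.424 and 0.715). The exon 3 value was -0.22 without culture 3, and the exon 1 value ran from -0.47 without exon 1 culture 6 to -0.21 without exon 1 culture 3. A second eif4g2 gene, listed by RefSeq as eif4g2b under LOC107388319, had exon 3 and exon 1 fold changes of -0.01 ± 0.13 and -0.05 ± 0.13, the first of which was -0.11 without exon 3 culture 3.

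The main scaffold gene eif4g1 had 375, 550 and 419 CPM in exon 3 mutants, 571, 413 and 357 CPM in exon 1 mutants, and 428, 481, 368 and 469 CPM in WT. Both mutant genotypes spanned the WT range, with fold changes of 0.04 ± 0.20 and 0.03 ± 0.20 (edgeR adjusted p = 0.952 and 0.989). Its paralog eif4g3 had 94.8, 140 and 109 CPM in exon 3 mutants, 135, 86.8 and 77.9 CPM in exon 1 mutants, and 88.8, 108, 90.1 and 110 CPM in WT, a fold change of 0.21 ± 0.20 in exon 3 mutants (edgeR adjusted p = 0.705). Its highest exon 3 value was in culture 3, and without that culture the fold change was 0.03. The helicase cofactor eif4b was the 1 member whose exon 1 cultures all exceeded WT: 208, 218 and 208 CPM in exon 1 mutants against 197, 179, 194 and 184 CPM in WT (0.16 ± 0.12, adjusted p = 0.792). Over all genes tested, 4.92% had exon 1 cultures wholly above WT. The helicase genes eif4a2 and eif4a3, the cap-binding genes eif4e2 and eif4e3, and the cofactor eif4h overlapped between genotypes, with fold changes between -0.21 and 0.13 against WT. A second eif4g1 gene, listed by RefSeq as eif4g1a under LOC107383968, also overlapped. It had 333, 506 and 351 CPM in exon 3 mutants, 480, 339 and 255 CPM in exon 1 mutants, and 360, 395, 347 and 414 CPM in WT. Its fold changes against WT were 0.07 ± 0.22 and -0.08 ± 0.22. A second eif4e3 gene, LOC107390489, had 5.78, 5.43 and 5.89 CPM in exon 1 mutants. All of these lay below WT (6.23, 6.60, 7.81 and 6.67 CPM), as for 4.37% of all genes tested. Exon 3 cultures of this gene overlapped WT. Fold changes were -0.23 ± 0.15 in exon 3 mutants and -0.26 ± 0.15 in exon 1 mutants (edgeR adjusted p = 0.575 and 0.717).

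Of the 3 genes that restrain eIF4E, the 2 eIF4E-binding protein genes had fold changes above 0 in both mutants without passing the test. The translational repressor gene eif4ebp2 had 116, 126 and 114 CPM in exon 3 mutants, 111, 119 and 122 CPM in exon 1 mutants, and 105, 90.3, 114 and 102 CPM in WT. It was the single member whose exon 3 cultures all lay above WT, though WT F9 nearly reached them, beside a background of 6.99% of all genes tested; the exon 1 cultures overlapped WT at that same culture. Fold changes were 0.21 ± 0.11 and 0.20 ± 0.11 (edgeR adjusted p = 0.466 and 0.688). Its relative eif4ebp3 had 35.7, 36.6 and 31.7 CPM in exon 3 mutants, 39.9, 50.1 and 33.6 CPM in exon 1 mutants, and 28.1, 25.6, 41.6 and 28.4 CPM in WT. Here too WT F9 stood within the mutants' range while the other 3 WT cultures were below every mutant culture. The exon 1 fold change was 0.42 ± 0.18 (unadjusted p = 0.0451, edgeR adjusted p = 0.575) and the exon 3 fold change 0.17 ± 0.18 (adjusted p = 0.743). The eIF4E transporter gene eif4enif1 had fold changes of 0.03 ± 0.11 and -0.07 ± 0.11, and the exon 1 value was -0.18 without library 3A.

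For start-site selection and subunit joining, eif5, which makes eIF2 hydrolyse its GTP, had fold changes of -0.12 ± 0.11 in exon 3 mutants and -0.08 ± 0.11 in exon 1 mutants against WT. The joining GTPase gene eif5b had 124, 190 and 125 CPM in exon 3 mutants, 167, 172 and 112 CPM in exon 1 mutants, and 134, 124, 162 and 153 CPM in WT. It was high in exon 3 culture 3, like eif3a, and its genotypes overlapped (exon 3 fold change 0.03, or -0.21 without that culture). The gene eif6, whose product keeps the large ribosomal subunit from joining too early, had 141, 101 and 120 CPM in exon 3 mutants, 118, 141 and 176 CPM in exon 1 mutants, and 176, 148, 139 and 132 CPM in WT. Exon 3 culture 1 overlapped WT, and the fold change was -0.31 ± 0.17 in exon 3 mutants and -0.04 ± 0.17 in exon 1 mutants (edgeR adjusted p = 0.501 and 0.981). Without exon 3 culture 3 the exon 3 value was -0.20.

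Among elongation factors, the 4 genes grouped as eEF1 by symbol were eef1g, eef1b2, eef1d and eef1e1. All 4 had fold changes below 0 in exon 3 mutants against WT (median -0.14) and above 0 in exon 1 mutants against WT (median 0.21). None passed the test. None of the 4 encodes eEF1A, and eEF1A genes were found under LOC numbers alone. Those tested, listed as eef1a1a and eef1a1l2, had means of only 0.79 and 25.1 CPM over all cultures. No eEF2 gene was found by symbol or by RefSeq name, so its level is not covered here. The scaffold subunit gene eef1g had 2006, 1140 and 1687 CPM in exon 3 mutants, 1791, 1905 and 2467 CPM in exon 1 mutants, and 2054, 1729, 1691 and 1547 CPM in WT. The exchange factor gene eef1b2 had 854, 419 and 686 CPM in exon 3 mutants, 796, 817 and 1107 CPM in exon 1 mutants, and 927, 734, 708 and 624 CPM in WT. In both genes exon 3 culture 3 was the lowest culture, exon 1 culture 6 was the highest, and the rest overlapped. Fold changes of eef1b2 were -0.20 ± 0.25 in exon 3 mutants and 0.28 ± 0.24 in exon 1 mutants against WT (edgeR adjusted p = 0.775 and 0.854), and -0.47 ± 0.26 between exon 3 and exon 1 mutants (adjusted p = 0.649). The exon 3 value was 0.04 without culture 3, the exon 1 value 0.46 without library 3A, and the value between the mutants -0.23 without exon 3 culture 3. The gene eef1e1 is grouped here by its symbol alone, as its product joins the multi-synthetase complex in mammals. It had 36.9, 30.2 and 34.4 CPM in exon 3 mutants, 34.9, 41.9 and 48.8 CPM in exon 1 mutants, and 40.8, 38.0, 35.7 and 33.0 CPM in WT. Exon 3 culture 1 exceeded exon 1 culture 3, and the fold change between the mutants was -0.31 ± 0.14 (edgeR adjusted p = 0.597). Without exon 3 culture 3 the eEF1 genes were 2 above and 2 below 0 in exon 3 mutants against WT, with a median of -0.01, and the median between the mutants was -0.19 where it was -0.33 with it. Leaving out exon 1 library 3A moved the exon 1 median against WT to 0.34, with all 4 above 0.

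The gene listed as eif5a, for the hypusine-bearing factor that helps ribosomes through difficult peptide bonds, had 51.0, 37.0 and 40.1 CPM in exon 3 mutants, 37.2, 37.8 and 50.7 CPM in exon 1 mutants, and 43.2, 40.1, 31.4 and 33.2 CPM in WT. The genotypes overlapped, with fold changes of 0.21 ± 0.17 and 0.18 ± 0.17 (edgeR adjusted p = 0.638 and 0.860), the second of which was 0.30 without exon 1 library 3A. The eEF2 kinase gene eef2k, which brakes elongation, had 17.4, 24.9 and 20.0 CPM in exon 3 mutants, 18.2, 20.2 and 23.4 CPM in exon 1 mutants, and 18.6, 16.1, 25.1 and 18.3 CPM in WT, also overlapping, with fold changes of 0.09 ± 0.18 and 0.08 ± 0.18 (adjusted p = 0.860 and 0.961). The eEF1A lysine methyltransferase gene eef1akmt1 had fold changes of -0.27 ± 0.18 and -0.05 ± 0.18.

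**Figure D2:**
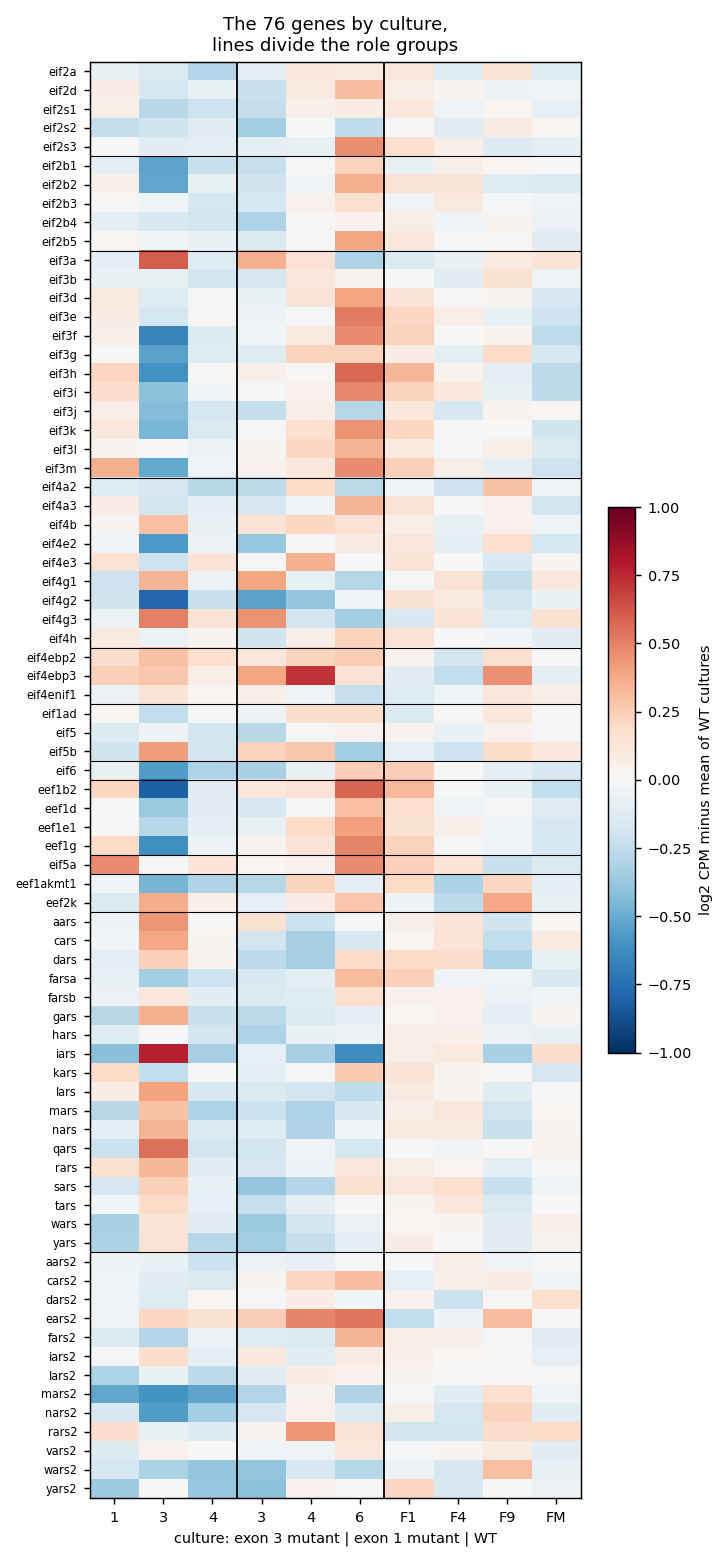
Each gene's log2 CPM in each culture minus its mean over the WT cultures (red above, blue below; the scale runs from -1 to 1), with cultures of exon 3 mutants, exon 1 mutants and WT from left to right. The eIF3 and eEF1 genes are mostly blue in exon 3 culture 3 and red in exon 1 culture 6, and the cytosolic synthetases are mostly red in exon 3 culture 3.

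Most of the 18 cytosolic synthetases had fold changes below 0 in exon 1 mutants against WT. In exon 3 mutants their direction turned on culture 3. In exon 1 mutants against WT, 16 of 18 had fold changes below 0, with a median of -0.15, and none passed the test. In exon 3 mutants against WT, 10 of 18 were above 0, with a median of 0.01. Relative to the WT mean on the log2 CPM scale, the median over the 18 genes was -0.09, 0.26 and -0.13 in exon 3 mutants, -0.19, -0.19 and -0.05 in exon 1 mutants, and 0.06, 0.05, -0.12 and 0.02 in WT. Exon 3 culture 3 was alone above the WT range, and exon 3 cultures 1 and 4 lay beside WT F9. Above the WT mean were 1, 0 and 7 of the 18 genes in exon 1 mutants, and 17, 15, 1 and 12 in WT. When exon 3 culture 3 was left out, 16 of 18 were below 0 in exon 3 mutants too, with a median of -0.13, and still 0 passed. Leaving out exon 1 library 3A gave 14 of 18 below 0 in exon 1 mutants, with a median of -0.11.

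The cysteinyl-tRNA synthetase gene cars had 88.5, 118 and 92.0 CPM in exon 3 mutants, 79.3, 71.8 and 80.9 CPM in exon 1 mutants, and 91.4, 99.3, 76.0 and 96.6 CPM in WT. It was the only member whose exon 3 cultures all exceeded the exon 1 cultures, beside 6.18% of all genes tested. The fold change between the mutants was 0.36 ± 0.15 (unadjusted p = 0.0298, edgeR adjusted p = 0.551), with 0.13 ± 0.14 in exon 3 mutants and -0.23 ± 0.14 in exon 1 mutants against WT (adjusted p = 0.723 and 0.719). When exon 3 culture 3 was left out these were 0.23 between the mutants and -0.02 in exon 3 mutants against WT. The leucyl gene lars had 135, 169 and 115 CPM in exon 3 mutants, 115, 112 and 107 CPM in exon 1 mutants, and 136, 130, 117.4 and 128 CPM in WT. The exon 1 cultures lay below WT, by little at culture 3 and WT F9, and the lowest exon 3 culture was level with the highest exon 1 culture. Between the mutants the fold change was 0.32 ± 0.14 (unadjusted p = 0.0458, edgeR adjusted p = 0.585), or 0.17 without exon 3 culture 3, and in exon 1 mutants against WT -0.20 ± 0.13 (adjusted p = 0.776).

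The glycyl gene gars, whose product serves both cytosol and mitochondria in vertebrates, had 317, 495 and 328 CPM in exon 3 mutants, 318, 349 and 359 CPM in exon 1 mutants, and 389, 396, 361 and 391 CPM in WT. With lars it was 1 of the 2 members whose exon 1 cultures all lay below WT, against 4.37% of all genes tested, and the gap at WT F9 was small. Fold changes were -0.01 ± 0.16 in exon 3 mutants and -0.17 ± 0.16 in exon 1 mutants (edgeR adjusted p = 0.978 and 0.871), and the exon 3 value was -0.26 without culture 3. The isoleucyl gene iars varied most within the group, with 82.7, 190 and 87.9 CPM in exon 3 mutants, 104, 88.1 and 71.8 CPM in exon 1 mutants, and 115, 118, 88.4 and 125 CPM in WT. Exon 3 culture 3 was far above every other culture and the other 2 exon 3 cultures were just below the lowest WT culture. Its fold change between exon 3 and exon 1 mutants was 0.45 ± 0.30 (edgeR adjusted p = 0.692), and without exon 3 culture 3 it was -0.04.

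Other cytosolic synthetases named by rank or role overlapped between genotypes. The alanyl gene aars had 225, 317 and 236 CPM in exon 3 mutants, 259, 201 and 230 CPM in exon 1 mutants, and 243, 254, 204 and 237 CPM in WT, with fold changes of 0.15 ± 0.15 and -0.03 ± 0.15 (edgeR adjusted p = 0.731 and 0.989). The tryptophanyl gene wars had 62.4, 85.6 and 71.8 CPM in exon 3 mutants, 60.2, 68.1 and 74.6 CPM in exon 1 mutants, and 78.8, 79.3, 72.1 and 81.7 CPM in WT, with fold changes of -0.09 ± 0.13 and -0.20 ± 0.13 (adjusted p = 0.800 and 0.740). In each of these genes exon 3 culture 3 was the highest culture, and without it their exon 3 fold changes were -0.03 and -0.22. The tyrosyl gene yars had an exon 1 fold change of -0.22 ± 0.13 (adjusted p = 0.731), and the asparaginyl gene nars and the arginyl gene rars had fold changes of 0.21 ± 0.16 and 0.17 ± 0.13 between exon 3 and exon 1 mutants, or 0.04 and 0.06 without exon 3 culture 3. The lysyl gene kars, a single gene for both compartments in vertebrates, and farsa, the α subunit of the phenylalanyl enzyme, went with the eIF3 genes instead: kars had 466, 345 and 408 CPM in exon 3 mutants, 382, 405 and 489 CPM in exon 1 mutants, and 446, 418, 411 and 365 CPM in WT, lowest in exon 3 culture 3 and highest in exon 1 culture 6.

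The 13 mitochondrial synthetases held the member with the smallest p-value, mars2. In exon 3 mutants, 11 of 13 had fold changes below 0 against WT (median -0.11) and 13 of 13 below 0 against exon 1 mutants (median -0.20), whereas in exon 1 mutants 8 of 13 were above 0 against WT (median 0.01). None passed the adjusted threshold. Without exon 3 culture 3, 11 of 13 were below 0 against WT (median -0.10) and 12 of 13 against exon 1 mutants (median -0.15). Relative to the WT mean their median was -0.13, -0.07 and -0.15 in exon 3 mutants, -0.06, 0.04 and 0.04 in exon 1 mutants, and -0.02, -0.05, 0.07 and -0.04 in WT.

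The methionyl gene mars2 had 8.42, 7.94 and 8.37 CPM in exon 3 mutants, 9.85, 12.4 and 9.76 CPM in exon 1 mutants, and 11.9, 11.2, 13.5 and 11.7 CPM in WT. The 3 exon 3 cultures were nearly level and lay below every exon 1 and every WT culture, while 2 of 3 exon 1 cultures lay below WT and 1 within it. The mean was 8.24 ± 0.26 CPM in exon 3 mutants and 10.7 ± 1.47 CPM in exon 1 mutants (SD, n = 3 each), and 12.1 ± 1.03 CPM in WT (SD, n = 4). Its exon 3 fold change against WT was -0.55 ± 0.13, with a 95% interval from -0.83 to -0.27, an unadjusted p of 0.00128 and an edgeR adjusted p of 0.119. DESeq2 (Wald test) on the same counts gave -0.55 with an adjusted p of 0.00697, and edgeR on the 18 libraries as separate samples, which counts technical partners as replicates, gave -0.54 with an adjusted p of 0.00665. Against exon 1 mutants the fold change was -0.37 ± 0.13 (edgeR adjusted p = 0.505), and the exon 1 value against WT was -0.18 ± 0.13 (adjusted p = 0.785). By library, mars2 had 7.45 to 8.62 CPM in the 6 exon 3 libraries, 8.47 to 12.3 CPM in the 6 exon 1 libraries and 10.9 to 13.6 CPM in the 6 WT libraries, with exon 1 library 3A the one that reached down into the exon 3 range.

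The asparaginyl gene nars2 had 11.5, 8.69 and 10.1 CPM in exon 3 mutants, 11.4, 13.2 and 11.6 CPM in exon 1 mutants, and 13.3, 11.4, 14.9 and 11.9 CPM in WT. Exon 3 culture 1 just exceeded the lowest WT and exon 1 values, and the other 2 exon 3 cultures were below both genotypes. Its exon 3 fold change was -0.35 ± 0.14 (unadjusted p = 0.0325, edgeR adjusted p = 0.353). The leucyl gene lars2 had 32.0, 37.7 and 33.0 CPM in exon 3 mutants, 36.7, 41.7 and 40.6 CPM in exon 1 mutants, and 40.4, 39.2, 39.4 and 39.1 CPM in WT. The 4 WT cultures were within a narrow band above all exon 3 cultures, and exon 1 cultures lay around them. The exon 3 fold change was -0.21 ± 0.09 (edgeR adjusted p = 0.406). The tryptophanyl gene wars2 had 8.33, 7.57 and 7.19 CPM in exon 3 mutants, 7.13, 8.46 and 7.73 CPM in exon 1 mutants, and 9.06, 8.35, 11.6 and 8.93 CPM in WT. Both mutants were at or under the lowest WT culture in all but 1 exon 1 culture, with fold changes of -0.30 ± 0.14 and -0.28 ± 0.14 (edgeR adjusted p = 0.435 and 0.645).

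The next mitochondrial genes were highest in exon 1 mutants. The glutamyl gene ears2 had 8.61, 10.2 and 9.81 CPM in exon 3 mutants, 10.5, 12.4 and 12.8 CPM in exon 1 mutants, and 7.45, 8.52, 10.9 and 8.81 CPM in WT. Exon 1 cultures exceeded all others except WT F9, which lay above exon 1 culture 3. Its exon 1 fold change was 0.42 ± 0.15 (unadjusted p = 0.0175, edgeR adjusted p = 0.462) and its exon 3 fold change 0.10 ± 0.15 (adjusted p = 0.821). The cysteinyl gene cars2 had 11.6, 11.0 and 10.8 CPM in exon 3 mutants, 12.1, 13.7 and 14.8 CPM in exon 1 mutants, and 11.2, 12.3, 12.5 and 11.6 CPM in WT. All exon 3 cultures were below all exon 1 cultures, and WT spanned the gap between them. Between the mutants the fold change was -0.28 ± 0.11 (unadjusted p = 0.0314, edgeR adjusted p = 0.553), and in exon 1 mutants against WT 0.18 ± 0.11 (adjusted p = 0.715).

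**Figure D3:**
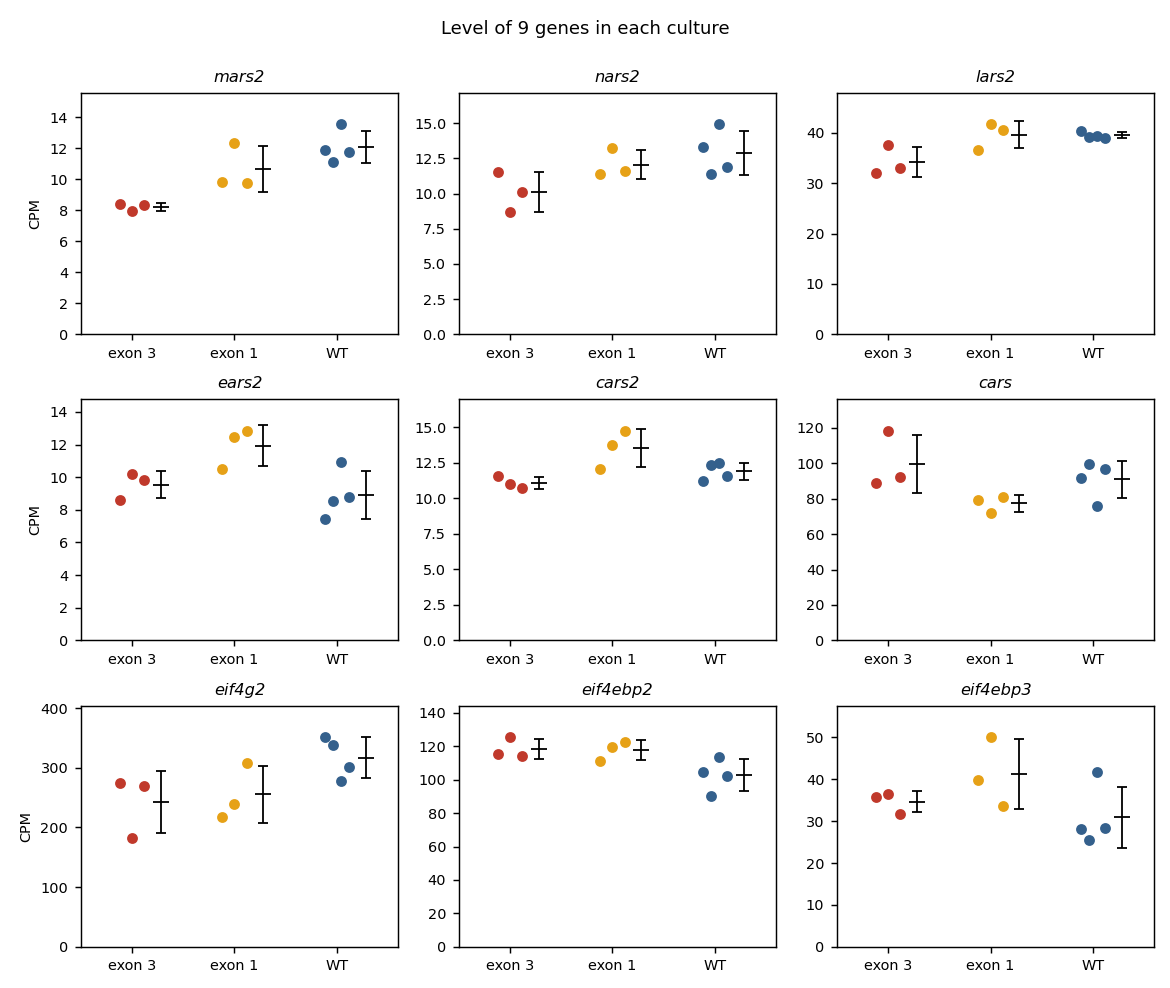
CPM on TMM-adjusted totals in each culture (points) of 9 genes, with the mean and SD beside them (bars; n = 3 exon 3, 3 exon 1 and 4 WT cultures); every axis starts at 0. The exon 3 cultures of mars2 lie at 7.94 to 8.42 CPM, below all other cultures, and those of eif4ebp2 lie above WT by a narrow margin.

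Exon 3 cultures lay wholly below WT for 8 members (mars2, aars2, wars2, lars2, eif2b1, eif2b4, eif2s2 and eif4g2), which is 10.5% of the family against 6.87% of all genes tested, and wholly above WT for 1. Several of the 8 were separated only narrowly. On log2 CPM minus the WT mean, the nearest exon 3 and WT cultures were at -0.175 and -0.171 for wars2 and -0.087 and -0.075 for eif2b1. They were at -0.200 and -0.185 for eif4g2 and -0.052 and -0.033 for aars2. Exon 1 cultures lay wholly below WT for 2 members and above for 1, as given above. Exon 3 cultures lay wholly below exon 1 cultures for 3 members (mars2, ears2 and cars2), or 3.95% against 5.04% of all genes, and above for 1.

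Within genotypes the family varied less than most genes. The median SD of log2 CPM within genotypes was 0.177 for the 76 genes and 0.259 for all genes tested, and the SD is smaller for genes with more counts, which was not adjusted for. Differences between genotype means took a median of 22.9% of a member's variance over the 10 cultures, against 24.5% for all genes. With so few cultures, genotype means differ through spread between cultures alone. The share was not adjusted for that, so it does not measure how much variance genotype accounts for. This unadjusted share was highest for mitochondrial synthetases (46.6%) and lowest for the cap-binding group (13.2%) among the groups of 5 or more genes. Whether groups differ in it was not tested.

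Many members shared variation between cultures. Taken as deviations from the genotype mean over the 10 cultures, the 4 eEF1 genes correlated with each other at a median r of 0.93, the 12 eIF3 genes at 0.67, and eIF3 with eEF1 genes at 0.85. The cytosolic synthetases correlated with each other at 0.69 but with eIF3 genes at -0.12, and the mitochondrial synthetases with each other at only 0.15. These r values are descriptions across cultures that share library depth and scaling, with no test. With exon 3 culture 3 dropped from the correlations they were 0.93, 0.69 and 0.88 for the eEF1, eIF3 and eIF3 with eEF1 pairs. They were 0.57 for the cytosolic synthetases, and 0.06 for eIF3 with cytosolic synthetases. The genotype means were not taken anew without it, so exon 3 cultures 1 and 4 still carry its offset in these values.

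The 67 cytosolic ribosomal protein genes in the table followed the same course as eIF3 and eEF1. Their median relative to the WT mean was 0.19, -0.84 and -0.04 in exon 3 mutants, 0.03, 0.04 and 0.49 in exon 1 mutants, and 0.29, 0.07, -0.08 and -0.28 in WT. eEF1 genes correlated with them at a median r of 0.94 and eIF3 genes at 0.78, while cytosolic synthetases did so at -0.39. Exon 3 culture 3 had both the lowest ribosomal protein median (-0.84) and the highest cytosolic synthetase median (0.26). The r between those groups was not taken without it. All 67 had fold changes below 0 in exon 3 mutants and above 0 in exon 1 mutants against WT (medians -0.17 and 0.18), and none passed the test. The exon 3 direction turned on culture 3: without it 62 of 67 were above 0, with a median of 0.06, and in culture 1 all 67 were above the WT mean. All 67 were above 0 in exon 1 mutants without library 3A too, with a median of 0.37. The part of the shifts in cell type markers of exon 3 culture 3 in these values was not tested.

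**Figure D4:**
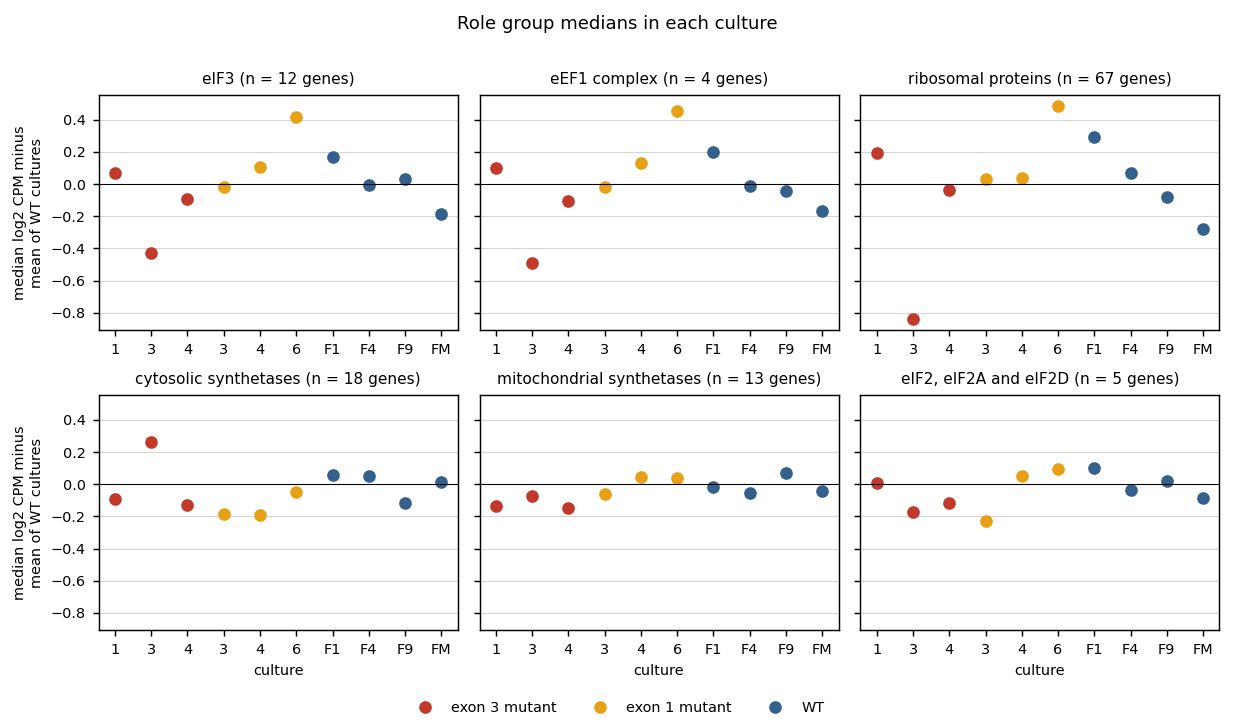
Median over the genes of each group of log2 CPM minus the mean of the WT cultures, for each culture of exon 3 mutants (1, 3, 4), exon 1 mutants (3, 4, 6) and WT (F1, F4, F9, FM). In exon 3 culture 3 the eIF3, eEF1 and ribosomal protein medians are -0.43, -0.49 and -0.84 and the cytosolic synthetase median is 0.26, whereas the mitochondrial synthetase medians of all 3 exon 3 cultures lie between -0.15 and -0.07.

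The technical partners of exon 1 culture 3 were far apart. The eIF3 median was -0.51 in library 3A and 0.37 in library 3B, the eEF1 median -0.65 and 0.47, and the ribosomal protein median -0.76 and 0.67. For eef1b2 library 3A had 442 CPM and library 3B 1188 CPM. The median absolute log2 difference between partners over the 76 genes was 0.51 in that culture and 0.07 to 0.22 in the other 7 cultures with partners. Partners of exon 3 culture 3 differed by a median of 0.09, so its 2 libraries lay close together. Library 3A and exon 3 culture 3 were alike in the eIF3, eEF1 and ribosomal protein medians but not in the cytosolic synthetases, whose median was -0.27 in library 3A against 0.35 and 0.15 in the exon 3 libraries 3A and 3B.

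**Figure D5:**
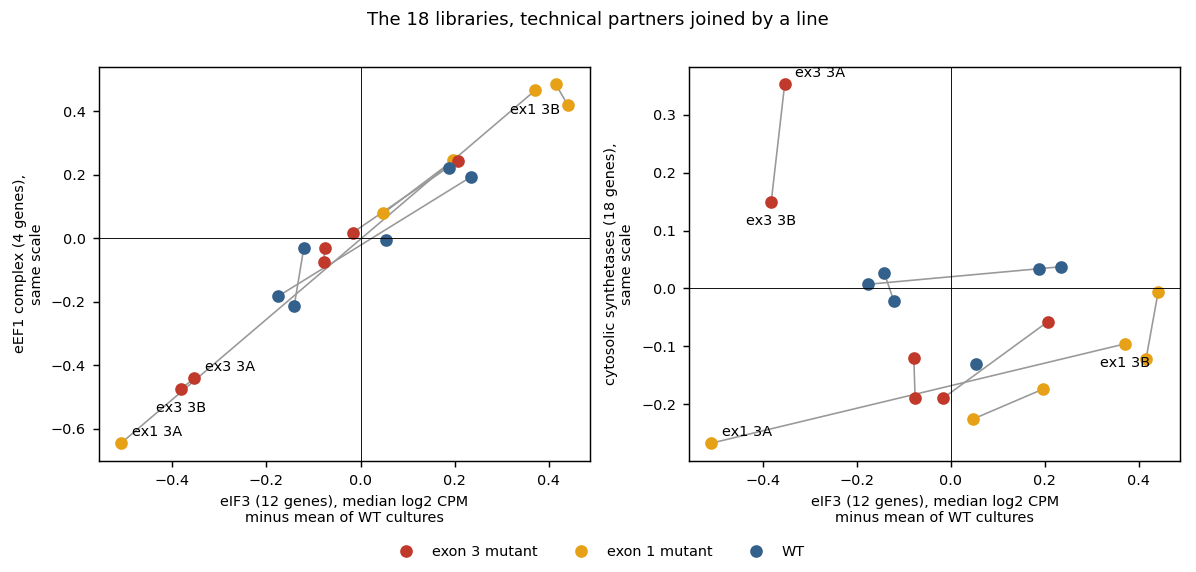
Each point is 1 of the 18 libraries; the x axis is the eIF3 median and the y axes are the eEF1 and cytosolic synthetase medians, all as log2 CPM minus the WT mean, and lines join technical partners. eIF3 and eEF1 lie along a diagonal from exon 1 library 3A (-0.51 and -0.65) to the exon 1 libraries at upper right, while the synthetases separate both exon 3 culture 3 libraries from the rest.

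Leaving out both exon 1 library 3A and exon 3 culture 3, an alternative chosen after seeing the data, changed how many members had unadjusted p-values under 0.05 but gave no adjusted call. In exon 1 mutants against WT the count was 19 of 76 (25.0%, against 17.3% of all genes), among them 6 of the 12 eIF3 genes, 3 of the 4 eEF1 genes and 5 of the 18 cytosolic synthetases. Of the 19, 13 were above WT and 6 below. In exon 3 mutants against WT the count was 9 (11.8%, against 9.69%), all below WT, of which 6 were cytosolic and 3 mitochondrial synthetases. In exon 3 against exon 1 mutants it was 11 (14.5%, against 13.4%). Leaving out library 3A alone gave 22 members between the mutants (28.9%, against 20.4% of all genes), 18 of them lower in exon 3 mutants. The smallest edgeR adjusted p over the members in these fits was 0.1005, for iars in exon 1 mutants against WT without both.

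Of the 21 translation genes under LOC numbers, 20 were tested, and 0 passed in any comparison. At an unadjusted p under 0.05 were 3 of 20 in exon 3 and 3 of 20 in exon 1 mutants against WT. All genes tested gave 12.3% and 8.48%. In exon 3 mutants they were eif3eb and eef2kmt, lower, and eef1a1l2, higher. In exon 1 mutants they were eif5a2 and eif4e1c, lower, and eef1a1a, higher. Both eef1a1a and eef2kmt were near the floor. In exon 1 mutants eef1a1a had 1.00, 1.25 and 1.27 CPM, which overlapped WT at 0.17, 0.42, 1.07 and 0.51 CPM. In exon 3 mutants eef2kmt had 0.72, 1.05 and 0.80 CPM, against 1.87, 1.39, 1.53 and 1.23 CPM in WT. Fold changes were below 0 for 15 of 20 in exon 3 mutants against WT (median -0.18) and for 14 of 20 in exon 1 mutants against WT (median -0.07). The exon 3 median was -0.11 without culture 3, and in exon 1 mutants without library 3A 10 of 20 were below 0 (median 0.02). LOC107383133, listed by RefSeq as eif5a, had 1119, 763 and 1014 CPM in exon 3 mutants, 989, 1088 and 1422 CPM in exon 1 mutants, and 1160, 1049, 1020 and 923 CPM in WT, overlapping and lowest in exon 3 culture 3. LOC107384710, listed as the helicase eif4a1b, had 1483, 984 and 1316 CPM in exon 3 mutants, 1368, 1411 and 1856 CPM in exon 1 mutants, and 1836, 1579, 1365 and 1252 CPM in WT, with the same low culture. The smallest p-value belonged to LOC107392075, listed as eif5a2, at -0.35 ± 0.12 in exon 1 mutants against WT: 77.0, 101 and 95.4 CPM in exon 1 mutants and 128, 110, 118 and 109 CPM in WT (unadjusted p = 0.0168, edgeR adjusted p = 0.460). LOC107375702, listed as the cap-binding eif4e1c, had 35.0, 24.5 and 38.2 CPM in exon 3 mutants, 27.0, 37.1 and 30.1 CPM in exon 1 mutants, and 42.9, 40.1, 39.5 and 39.8 CPM in WT. All its mutant cultures lay below WT, with fold changes of -0.32 ± 0.16 and -0.37 ± 0.16 (adjusted p = 0.450 and 0.565), the first of which was -0.16 without exon 3 culture 3. Of all genes tested, 6.87% had exon 3 cultures and 4.37% exon 1 cultures wholly below WT. Going the other way, LOC107394932, listed as eef1a1l2, had all mutant cultures above WT, beside 6.99% and 4.92% of all genes. It had 24.1, 34.9 and 24.4 CPM in exon 3 mutants and 24.7, 23.8 and 31.7 CPM in exon 1 mutants. WT had 21.6, 21.2, 22.2 and 22.2 CPM, and fold changes were 0.35 ± 0.15 and 0.29 ± 0.15 (edgeR adjusted p = 0.380 and 0.656). Exon 3 culture 3 and exon 1 culture 6 lay well above the other mutant cultures, which were nearer to WT. Both fold changes lean on those cultures. Where such paralogs are near-identical, the way reads were divided between them is not given in the sources used here, so their counts are uncertain. CPM are not per length, so levels of different genes are not compared.

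The regulators around these factors were read from lists of related genes, and no gene of the lists passed the adjusted threshold in any comparison. Of 10 mitochondrial translation factors, 9 had fold changes below 0 in exon 3 mutants against WT (median -0.17) and 7 in exon 1 mutants (median -0.06, or -0.01 with 5 below 0 without library 3A). The mitochondrial elongation factor gene gfm1 had 37.9, 46.5 and 38.4 CPM in exon 3 mutants, 39.9, 46.2 and 42.2 CPM in exon 1 mutants, and 59.8, 55.5, 51.6 and 53.7 CPM in WT. All mutant cultures were below all WT cultures, with fold changes of -0.43 ± 0.11 and -0.37 ± 0.11 (unadjusted p = 0.00269 and 0.00708, edgeR adjusted p = 0.153 and 0.354). Over all genes tested, exon 3 cultures lay wholly below WT for 6.87% and exon 1 cultures for 4.37%. The elongation factor exchange gene tsfm had an exon 3 fold change of -0.35 ± 0.13 (adjusted p = 0.301).

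Of 17 transcription factors and targets of the integrated stress response, the pathway that runs through eIF2 phosphorylation, 14 were below 0 in exon 1 mutants against WT (median -0.19), 10 were above 0 in exon 3 mutants against WT (median 0.01) and 15 were above 0 in exon 3 against exon 1 mutants (median 0.38). Relative to the WT mean the median of the 17 was -0.14, 0.24 and -0.03 in exon 3 mutants, -0.33, -0.35 and -0.0078 in exon 1 mutants, and 0.17, 0.18, -0.35 and -0.01 in WT. Only 5 of 17 were above 0 in exon 3 mutants against WT once culture 3 was left out (median -0.14). In exon 1 mutants against WT, 14 of 17 were still below 0 without library 3A, but the median was -0.09. The median between the mutants was 0.23 without exon 3 culture 3, 0.25 without exon 1 library 3A and 0.05, with 9 of 17 above 0, without both. The stress transcription factor atf3 had 6.10, 5.53 and 4.76 CPM in exon 3 mutants, 2.16, 2.27 and 4.18 CPM in exon 1 mutants, and 8.58, 4.33, 5.91 and 4.50 CPM in WT, with exon 1 cultures below all others (-1.02 ± 0.31 against WT, edgeR adjusted p = 0.356). The gap from exon 1 culture 6 to WT F4 was small, and 4.37% of all genes had exon 1 cultures wholly below WT. The amino acid transporter gene slc7a5 had 27.2, 60.7 and 33.0 CPM in exon 3 mutants, 22.2, 19.9 and 21.9 CPM in exon 1 mutants, and 18.2, 25.9, 12.7 and 25.8 CPM in WT. Its exon 3 cultures were all above the rest and culture 3 was highest, with a fold change of 0.96 ± 0.29 against WT (adjusted p = 0.221), or 0.53 without culture 3. Exon 3 culture 1 was only just above WT F4, and 6.99% of all genes had exon 3 cultures wholly above WT. Of 17 genes of mTORC1 signalling and cap-dependent control, 10 were above 0 in exon 3 mutants and 11 in exon 1 mutants against WT (medians 0.17 and 0.06). Leaving out exon 3 culture 3 gave 6 above 0 and a median of -0.03 in exon 3 mutants, and leaving out library 3A gave 8 and -0.02 in exon 1 mutants. In this list pdcd4, an inhibitor of eIF4A, had 26.9, 51.4 and 37.3 CPM in exon 3 mutants, 32.0, 30.6 and 40.6 CPM in exon 1 mutants, and 20.1, 24.5, 30.4 and 25.1 CPM in WT (exon 3 fold change 0.62 ± 0.21, adjusted p = 0.280, or 0.35 without culture 3), and mknk1, a kinase of eIF4E, was at -0.41 ± 0.13 in exon 3 mutants (adjusted p = 0.215).

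The 7 genes around eIF2 phosphorylation (the kinase genes eif2ak1, eif2ak3 and eif2ak4, the phosphatase catalytic gene ppp1cc, and gcn1, impact and nck1) had 5 above 0 in exon 3 mutants and 6 in exon 1 mutants against WT (medians 0.10 and 0.02), and no unadjusted p under 0.05. Leaving out exon 3 culture 3 gave 3 above 0 and a median of -0.03 in exon 3 mutants, and leaving out library 3A gave 4 and 0.05 in exon 1 mutants. The 10 genes of termination, recycling and hypusine formation had 9 below 0 in exon 3 mutants (median -0.17, or -0.11 without culture 3) and 5 in exon 1 mutants (median 0.0019, or 0.14 with 2 below 0 without library 3A), with dohh, which completes hypusine, at -0.33 ± 0.13 in exon 3 mutants (edgeR adjusted p = 0.350). The 17 ribosome biogenesis regulators had 16 below 0 in each mutant against WT (medians -0.20 and -0.11), but cultures differed. Relative to the WT mean their median was -0.26, -0.04 and -0.33 in exon 3 mutants and -0.27, 0.13 and -0.36 in exon 1 mutants. It was 0.04, -0.17, 0.14 and 0.0023 in WT. In exon 1 culture 4, 16 of 17 were above the WT mean, as in WT F9. The 7 diphthamide and elongation factor modifiers had 6 and 5 below 0 in exon 3 and exon 1 mutants (medians -0.15 and -0.11). The 9 genes of the synthetase complex and of synthetases outside the name rule had 4 and 2 below 0 (medians 0.0012 and 0.08). In the last list eprs, the joined glutamyl and prolyl enzyme, had 241, 513 and 249 CPM in exon 3 mutants, 304, 220 and 191 CPM in exon 1 mutants, and 205, 262, 212 and 253 CPM in WT, another gene for which exon 3 culture 3 stood far above the rest.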

How the data were processed

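Per the files' values, the authors deposited a table of raw read counts by gene, all of them whole and none below 0, for 18 libraries of polyadenylated RNA. STAR 2.7.6a, edgeR 3.32.1, cutadapt 3.4, Trim Galore 0.6.4 and FastQC 0.11.8 stand in the submitters' processing notes without saying what each did. Which genome build and annotation were used, whether counting used strand, and how reads matching several genes were treated is not given in the sources used here. Technical partners were summed by gene to 10 cultures. Genes were filtered with filterByExpr by genotype and scaled with TMM (trimmed mean of M values). All 10 cultures were fitted in 1 model by genotype with edgeR 4.0.16 (quasi-likelihood F test, robust; limma 3.58.1, R 4.3.3), tested on simulated data first. p-values were adjusted by Benjamini-Hochberg over all 16354 genes tested, with a threshold of 0.05. CPM use TMM-adjusted totals, fold changes a prior count of 0.125, and SE is the fold change divided by the root of F.

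The 76 members, the related gene lists and the tests were chosen with earlier results of these data known. Genes meant to be named with full values were, in each comparison, the 5 with the smallest p in each direction among those of at least 5 CPM. A list of well-known factors, and the largest and smallest of each group by counts, were meant to be named too. Of the factors, eef2 and eif4ebp1 were found neither by symbol nor by RefSeq name. Of the group extremes, eif3d, iars2, eif1ad and eif2b3 are not described singly. Some of the other genes are given without values per culture. Genes whose culture ranges did not overlap, and other examples (eif2b1, eif2b4, eif3h, eif5b, kars and others), were added after their values were seen. RefSeq (assembly NfurGRZ-RIMD1) gave names for LOC numbers and matched 48 of the 76 members. No sequences or coordinates were used here, and the promoter motif count once intended was not made. Alternatives included DESeq2 1.42.0, other scalings, other groupings of WT libraries and leaving out each culture. Counts and intervals cover counting error and spread between these samples only.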

Additional observations from a re-analysis of the deposited data

How the results depend on the processing

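The model was refitted under 24 other settings. The one that leaves out exon 1 library 3A and exon 3 culture 3 together was added after seeing the data. The number of members called was 0 in each comparison and setting except exon 3 mutants against WT, where it was 1 (mars2) with DESeq2 and 1 (mars2) with the 18 libraries as separate samples, a setting that treats technical partners as replicates. The median fold change of the members (all values here are log2) was 0.01 in exon 1 mutants against WT and -0.083 with the first library of each culture. In exon 3 mutants against WT it was -0.07, and leaving out 1 culture at a time gave -0.11 (without exon 3 culture 1) to -0.039 (without WT F1). The cause of these shifts was not tested.

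The counts over all genes moved more. Between exon 3 mutants and WT 39 genes were called, 497 with DESeq2 and 567 with 18 separate libraries. Between exon 1 mutants and WT the counts were 26, 267 and 342, and between the mutants 2, 176 and 278. Leaving out 1 culture at a time gave 7 to 38, 5 to 56 and 1 to 8 calls, and all settings together 6 to 567, 3 to 342 and 1 to 278. Members at an unadjusted p under 0.05 numbered 2, 2 and 4 in the same comparisons, with ranges of 1 to 9, 1 to 19 and 0 to 22 over all settings and 1 to 6, 1 to 4 and 0 to 12 when 1 culture was left out.

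Fold changes of some named genes changed sign, none of them called either way. With exon 1 library 3A left out, exon 1 mutants against WT had 0.068 for eif2s1, 0.086 for eif6 and -0.18 for eif4g1. With exon 3 culture 3 left out as well these were 0.066, 0.084 and -0.18, exon 3 mutants against WT had -0.017 for cars, -0.14 for eif4g1, -0.069 for eef2k and -0.030 for aars, and the difference between the mutants was -0.0083 for nars. With the first library of each culture, exon 3 mutants had 0.060 for gars, and exon 1 mutants had -0.098 for eif5a and 0.0017 for aars. With F1 and F9 alone standing for WT, exon 3 mutants had -0.0090 for eif4ebp3, -0.076 for eef2k and 0.019 for gars, and exon 1 mutants had -0.091 for eef2k and 0.038 for aars. With 18 separate libraries, eif4g1 had -0.011 in exon 3 mutants and -0.0035 in exon 1 mutants, and eif6 had 0.0023 in exon 1 mutants. With WT F1 and F9 summed eif4g1 had -0.00016 and -0.0049 in exon 3 and exon 1 mutants, and with WT libraries regrouped -0.0046 and -0.0097.

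Leaving out 1 culture at a time in exon 3 mutants against WT gave -0.017 to 0.21 for cars, -0.14 to 0.15 for eif4g1, -0.069 to 0.24 for eef2k, -0.26 to 0.098 for gars, -0.030 to 0.24 for aars and -0.22 to 0.012 for wars. In exon 1 mutants against WT it gave -0.088 to 0.063 for eif2s1, -0.20 to 0.087 for eif6, -0.18 to 0.17 for eif4g1, -0.021 to 0.22 for eef2k and -0.12 to 0.064 for aars. Between the mutants it gave -0.045 to 0.65 for iars.

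Replicate numbers 3 and 4 occur in both mutants, and the deviations of same-numbered cultures correlated at 0.23 and -0.15. Whether a number marks a shared fish, batch or day is not stated. These correlations, with none for unmatched cultures beside them, cannot settle it. With the replicate block, exon 3 mutants against exon 1 mutants had 0 members called, 9 genes called in all and 9 members at an unadjusted p under 0.05 (11.8%, where all genes in that fit gave 11.5%).

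With 3 or 4 cultures a genotype, the interval of a single fold change is wide, and a p above the threshold does not show equal levels. Genes of a few CPM, such as several mitochondrial synthetases, also carry more counting error.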
